A study of Mus musculus with 4 samples.

Results

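Serpins are a family of protease inhibitors that trap their target enzyme by a large change of shape, and they were read here as every non-control array probe whose gene name starts with Serpin. The rule found 87 spots of 78 different probes for 61 genes, out of 43020 spots, 39429 probes and 31131 genes on the array. The genes comprised 24 of clade A, 27 of clade B and 10 of other clades. Gene expression was measured in whole mouse lung on Agilent 1-colour arrays, with 1 array for each of 4 groups and RNA pooled from 4 samples on each array. The groups were Pla2g3+/+ control, Pla2g3-/- control, Pla2g3+/+ antigen challenged and Pla2g3-/- antigen challenged, where Pla2g3 encodes the secreted group III phospholipase A2. The challenge model was ovalbumin (10 µg) in alum (1.3 mg) injected on days 0 and 14, followed by 1% ovalbumin aerosol for 30 min on each of days 26, 27 and 28, and lungs were taken 48 h later. One protocol is attached to every group, so the treatment of the controls is not stated there, nor are the strain, age and sex of the mice.

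Clade A serpins are mostly secreted. Serpina1 encodes alpha-1-antitrypsin, the main plasma inhibitor of neutrophil elastase, and mice carry several near-identical copies of it, as they do of the acute-phase Serpina3 genes. Clade B serpins mostly stay inside cells, where they guard against the cell's own lysosomal and granule proteases. The other clades include inhibitors of coagulation, plasminogen activation and complement, together with members that inhibit no protease, such as the collagen chaperone Serpinh1.

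Values came from the 4 scanner files and from the value table that the authors deposited, and these 2 sources were not the same measurements although their columns carry the same labels. Across spots the log2 values of same-named columns correlated at r = 0.911 to 0.919, and single genes differed between the sources far more than within them, so each comparison is given within each source and the table is given first. A level is the log2 signal relative to the array's 75th percentile, and a probe's level is not set against another probe's as abundance. The gene that was deleted went against the labels: Pla2g3 (probe A_55_P2043033) was higher on the arrays labelled -/-, by 22.1-fold (control) and 25.4-fold (challenged) in the table and by 9.14-fold and 14.9-fold in the scanner files. A second Pla2g3 probe (A_55_P2043039) was also higher on those arrays, by 16.2-fold and 14.8-fold in the table and by 4.35-fold and 23.5-fold in the scanner files. Whether either probe lies in the deleted part is not given. Arrays are therefore referred to by their label, KO-labelled or WT-labelled, and no direction is ascribed to the genotype itself. Of the lung markers, all 6 listed for alveolar type II cells were above background in both sources, with summed linear levels of 284 to 303 in the table and 52.0 to 60.2 in the scanner files. Sftpc, which defines that cell type, read 6.92 to 7.04 in the table but -1.33 to -0.26 in the scanner files. Other markers of that list differed by unlike amounts. Sftpb read 5.24 to 5.37 in the table and 0.58 to 2.56 in the scanner files, and Abca3 4.38 to 4.58 and 4.10 to 4.23. The 11 squamous and basal epithelial markers summed to 2.52 to 3.41 in the table and to 113 to 142 in the scanner files. In whole lung RNA, fewer cells of a type and less RNA per cell cannot be told apart.

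Of the 61 genes, 41 were above background on every array of both sources. The value table had 42 genes above background on all 4 arrays and 47 on 1 or more, and the scanner files had 46 and 50. The 9 genes at background on every array were Serpina3j, Serpina4-ps1, Serpina5, Serpinb13, Serpinb3b, Serpinb9c, Serpinb9d, Serpinb9f and Serpinb9g. Serpina7 (thyroxine-binding globulin) and Serpind1 (heparin cofactor II) were detected only in the table. Serpina12 (vaspin), Serpinb3a, Serpinb3d, Serpinb9b and Serpini2 were detected only in the scanner files. With 1 array per group a difference between 2 arrays has no replicate error and no p-value. The only errors in the files are those of the spots, which gave 0.20 to 0.38 (median 0.20) for a log2 difference between 2 scanner arrays among genes above background on all 4, and the table gives none. The 10 repeat spots of Serpinb3c had an SD within an array of 0.15 to 0.19 in the table and of 0.18 to 0.23 in the scanner files. Neither measures the variation between mice.

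The first comparison asked which serpins differed between the genotype labels. In the table the 4 alpha-1-antitrypsin copies Serpina1a, Serpina1c, Serpina1d and Serpina1e stood 21.4 to 35.4-fold higher on the KO-labelled arrays, whether control or challenged. Serpina9 stood about as clearly the other way, at 6.89-fold and 7.04-fold lower. The scanner files held the Serpina9 difference in the same direction (2.97-fold and 3.68-fold lower), while their Serpina1 copies differed by 1.00 to 1.65-fold. Outside clade A, Serpinb11 in the challenged pair (3.67-fold higher on the KO-labelled array) was the only Serpin gene of the table over 2-fold.

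Counts of genes past 2-fold take the measured signal of each array, including one at background, where the fold itself is only a bound. In counts at 2-fold or more, the control arrays of the table held 4 Serpin genes higher and 6 lower on the KO-labelled array, of 45 measured, beside 1.91% of all genes higher and 3.23% lower (5.14% either way). On the challenged arrays the table held 5 higher and 3 lower of 47, beside 2.1% and 3.68% of all genes (5.79%). All 10 of the control pair and 7 of the 8 of the challenged pair were of clade A. The control pair of the scanner files held 0 higher and 5 lower of 49, beside 3.6% and 2.38% of all genes (5.98%), and their challenged pair 5 higher and 6 lower of 50, beside 4.2% and 3.96% (8.16%). Counting genes that passed 2-fold one way in both pairs, the table held 4 Serpin genes higher and 3 lower of 45, beside 0.695% and 1.62% of all genes (2.31%), and the scanner files 0 higher and 4 lower of 49, beside 0.947% and 0.685% (1.63%). When an array at background was given the floor, which is the lowest signal above background on it, the genes lower in both pairs numbered 2 in the table, without Serpina3k, and 3 in the scanner files, without Serpinb7. The median log2 difference over the measured Serpin genes was -0.12 and -0.07 in the table and -0.16 and 0.05 in the scanner files, so the family as a whole did not lie to one side, and over all genes the medians lay between -0.06 and 0.01. The pairs share no array within a source, but each genotype pair shares its arrays with the challenge pairs.

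Serpina1a (probe A_55_P2165414, mm9 chr12:105091819-105091878, minus strand) read -5.47 on the WT-labelled control array, -0.47 on the KO-labelled control array, -4.80 on the WT-labelled challenged array and -0.38 on the KO-labelled challenged array of the table. Both KO-labelled arrays lay above both WT-labelled arrays, 32.0-fold (control) and 21.4-fold (challenged). Serpina1c (chr12:105133165-105133224) read -5.60, -0.46, -4.97 and -0.32 on the arrays in that order, Serpina1d (chr12:105002930-105002989) read -7.81, -3.23, -7.68 and -2.98, and Serpina1e (chr12:105185172-105185231) read -6.08, -1.13, -5.50 and -1.08. The 4 copies thus repeated a single pattern over the arrays. Serpina1f, a more distant copy, read -6.38, -6.44, -5.93 and -5.66 and did not share the step between the labels. Exon and UTR positions of the probes were not analysed here.

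The copies cannot be read as 4 independent genes. The probes of Serpina1a and Serpina1c share 50 of 51 overlapping bases, and those of Serpina1c and Serpina1e 49 of 59. The Serpina1c probe lists transcripts of Serpina1a, Serpina1b and Serpina1c, the Serpina1d probe lists Serpina1b as well, and no probe is named Serpina1b. A shared 30-base stretch of 3 probes is shown because probes this alike can bind the same transcripts, with the 2 columns that differ between the probes in capitals:
Serpina1a: aaAaTgtcatccttccttctgaattgggtt
Serpina1c: aaGaTgtcatccttccttctgaattgggtt
Serpina1e: aaGaAgtcatccttccttctgaattgggtt
Second probes of the same genes showed the step at other sizes. The second Serpina1a probe (A_55_P2010312) read -6.71, -4.04, -6.59 and -3.94, and the second Serpina1e probe (A_55_P2010292) read -4.79, -3.23, -4.90 and -3.07. The second Serpina1d probe (A_66_P121117) was at background on both WT-labelled arrays and read -4.62 and -4.45 on the KO-labelled arrays. All 7 probes of the 4 copies were therefore higher on both KO-labelled arrays of the table.

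The promoters of the copies are alike too. RefSeq promoter sequences were matched for 50 of the 61 genes. The 75 bases below, from the GRCm38.p6 minus strand of chromosome 12, are identical over 5 copies in 65 columns. The capitals mark GTTAAT, the half-site of the liver factor HNF1, which starts 16 to 78 bases before the RefSeq start of each copy:
Serpina1a: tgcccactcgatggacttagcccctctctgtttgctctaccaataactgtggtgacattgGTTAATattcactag
Serpina1b: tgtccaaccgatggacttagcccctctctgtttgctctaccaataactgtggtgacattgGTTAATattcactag
Serpina1c: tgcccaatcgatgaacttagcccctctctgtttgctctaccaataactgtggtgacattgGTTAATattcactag
Serpina1d: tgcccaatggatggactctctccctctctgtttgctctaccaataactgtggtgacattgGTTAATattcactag
Serpina1e: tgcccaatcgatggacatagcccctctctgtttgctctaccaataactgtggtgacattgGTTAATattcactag
They lie at chr12:103863626-103863700 (Serpina1a), chr12:103738201-103738275 (Serpina1b), chr12:103904963-103905037 (Serpina1c), chr12:103773635-103773709 (Serpina1d) and chr12:103956961-103957035 (Serpina1e). GTTAAT, searched on both strands of the 250 bases before the start, was held by 6.43% of 32851 promoters of the table of all genes and by those of 10 of the 50 Serpin genes matched. The holders were Serpina1a, Serpina1c, Serpina1d, Serpina1e, Serpina3c, Serpina7, Serpinb3b, Serpinb3d, Serpinb8 and Serpini2. A match of letters is a description and not a site.

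Hepatocyte markers of the table were read beside the Serpina1 copies. The 13 listed markers summed to 2.73, 3.39, 3.27 and 2.65 on the WT-labelled control, KO-labelled control, WT-labelled challenged and KO-labelled challenged arrays. Of these, 1 of 11 measured was 2-fold higher on the KO-labelled array of the control pair, and 0 of 10 (with 2 lower) of the challenged pair. Albumin read -5.86, -5.47, -6.50 and -6.05, which is 0.39 and 0.45 higher on the KO-labelled arrays on the log2 scale. Apoa1 and Ttr were at background on every array of both sources. The part of this cell type in the Serpina1 values was not tested.

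The same Serpina1 probes did not show the step among the scanner values. Serpina1a read -0.67, -0.17, -1.70 and -0.99, Serpina1c -0.69, -0.22, -1.63 and -0.97, Serpina1d -3.21, -3.21, -4.09 and -3.70, and Serpina1e -1.33, -0.88, -2.34 and -1.61. The KO-labelled array was 0.46 to 0.49 higher on the log2 scale for Serpina1a, Serpina1c and Serpina1e in the control pair, and 0.66 to 0.72 in the challenged pair. All 4 copies were lower on the challenged arrays there, by 0.87 to 1.03 in the WT-labelled pair and by 0.49 to 0.82 in the KO-labelled pair on the log2 scale, and in the table the same copies were 0.06 to 0.67 higher.

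**Figure D1:**
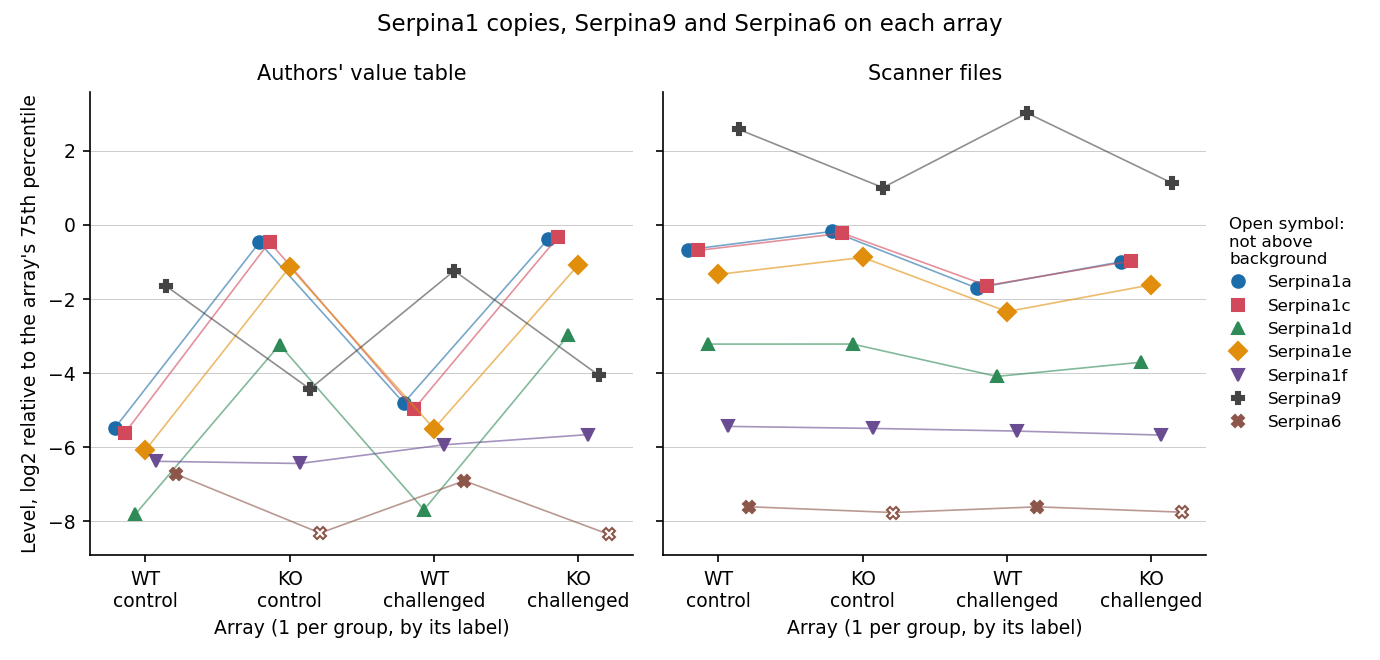
Levels (log2 relative to the array's 75th percentile) of 5 Serpina1 copies, Serpina9 and Serpina6 on the 4 arrays, in the authors' value table (left) and the scanner files (right); each symbol is 1 array and an open symbol is not above background. Lines join the arrays of a gene and stand for no order. In the table Serpina1a lies at -5.47 and -4.80 on the WT-labelled arrays and at -0.47 and -0.38 on the KO-labelled arrays, and Serpina9 runs the other way in both panels.

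The Serpina genes lie side by side on chromosome 12, and the difference between the labels could be followed along their order. In the reference order the cluster from Serpina10 to Serpina3n held 24 genes with a probe. Of the 20 measured in both pairs of the table, 5 were 2-fold higher in both pairs and 3 were lower, while 0 of 22 measured so among the 15 genes on each side were higher and 0 lower. Among genes with a probe, the higher genes formed an unbroken run: Serpina1d, Gm8893, Serpina1a, Serpina1c and Serpina1e. As the Serpina1 copies cannot be read as independent genes, the run may hold fewer than 5 separate readings. Gm8893, whose name does not start with Serpin and which was singled out after its values were seen, differed by 5.42 and 4.58 on the log2 scale. Its scanner differences, 0.50 and 0.69, lay close to those of Serpina1c, 0.46 and 0.66, so it may not be an independent reading. Whether its probe binds Serpina1 transcripts was not tested. The nearest genes with a probe on either side did not follow the run: Serpina1f differed by -0.06 and 0.28, and Serpina11 by -1.25 and -0.97. Among scanner values 0 of 20 cluster genes measured in both pairs were higher and 1, Serpina9, was lower, and of 22 flanking genes 0 were higher and 0 lower.

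**Figure D2:**
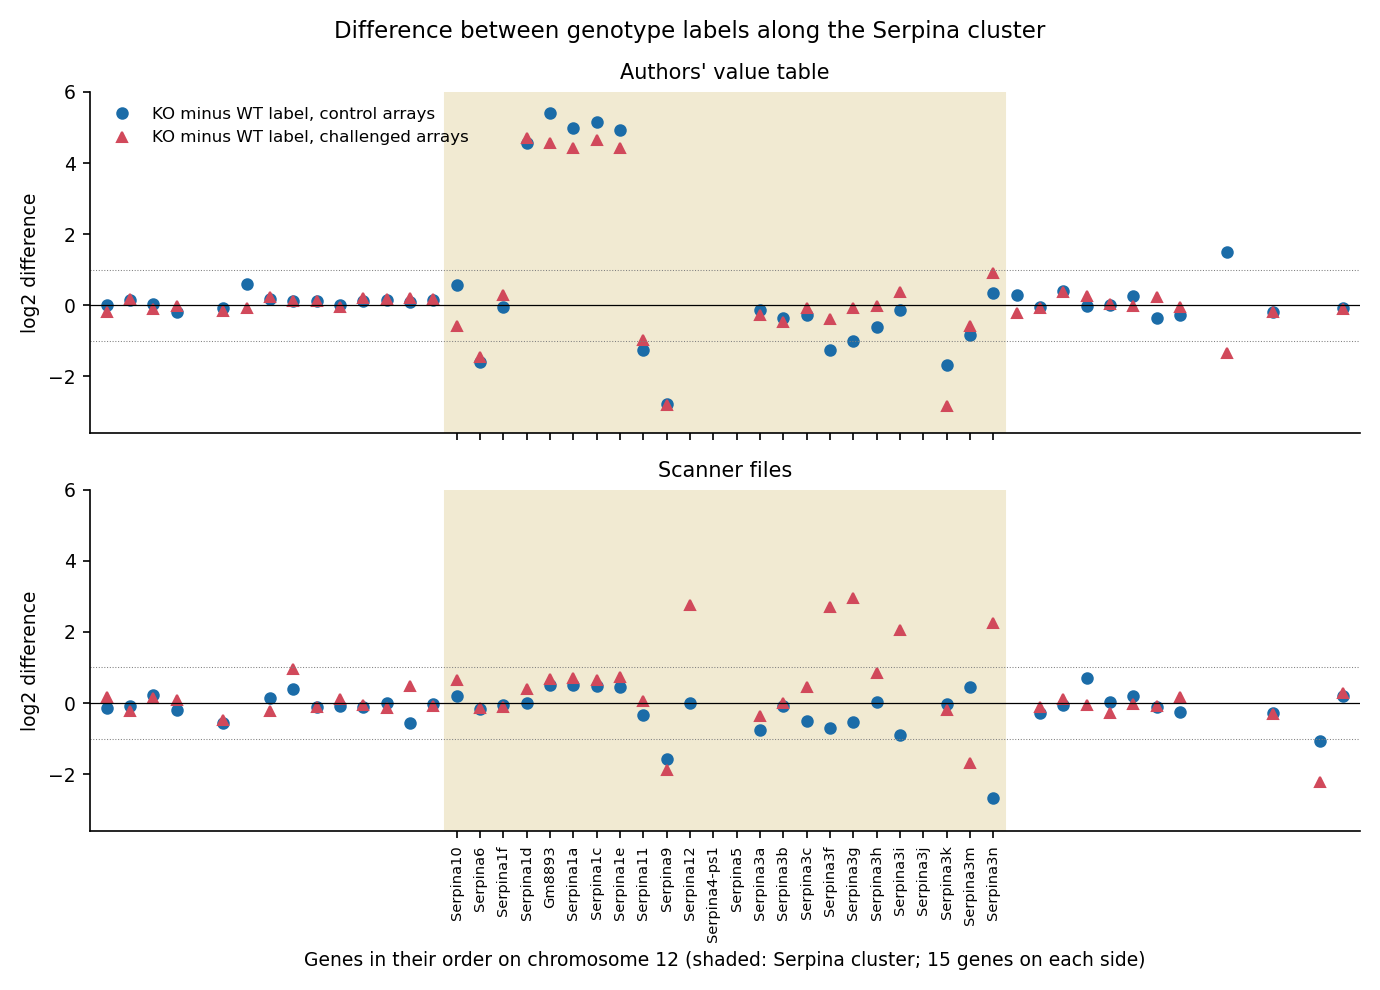
KO-labelled minus WT-labelled log2 difference (vertical axis) of the control arrays (circles) and challenged arrays (triangles) for genes in their chromosome 12 order (horizontal axis), with the Serpina cluster shaded and 15 genes on each side; genes detected on 1 or more of the arrays are drawn and dotted lines mark 2-fold. In the table (top) the run from Serpina1d to Serpina1e lies between 4.42 and 5.42, and in the scanner files (bottom) the same genes lie between 0.00 and 0.72.

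Serpina9 (centerin, a serpin of germinal centre B cells; mm9 chr12:105234830-105234889, minus strand) was the only Serpin gene over 2-fold one way in both genotype pairs of both sources. It read -1.64, -4.42, -1.23 and -4.05 on the WT-labelled control, KO-labelled control, WT-labelled challenged and KO-labelled challenged arrays of the table. On the scanner arrays it read 2.58, 1.01, 3.02 and 1.14. Both WT-labelled arrays lay above both KO-labelled arrays in each source, although the level of this probe differed by 4.77 on the log2 scale between the sources, which were scaled separately.

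Serpina6 (corticosteroid-binding globulin) and Serpina3k (kallikrein-binding protein) were lower on the KO-labelled arrays of the table, where both were at background. Serpina6 read -6.72 and -6.90 on the WT-labelled arrays, at least 3.01-fold (control) and 2.24-fold (challenged) above the floor of the KO-labelled ones. Serpina3k read -8.33 on the WT-labelled control array, at least 1.05-fold above that floor (0.07 on the log2 scale), and -6.00 on the WT-labelled challenged array, at least 4.18-fold above it. Over 2-fold in the control pair only were Serpina11 (2.37-fold lower), Serpina3f (2.38-fold lower) and Serpina3g (2.02-fold lower). Other table probes of 2 of these genes were under 2-fold in that pair. For Serpina11 (A_55_P2010191) it was 1.54-fold lower, and 1.23-fold higher in the challenged pair. For Serpina3f (A_55_P2142226) it was 1.82-fold lower. Scanner values of Serpina3k differed by -0.03 and -0.21. Those of Serpina6 differed by -0.16 and -0.14, but from another probe (A_55_P2178036) that was at background on both KO-labelled arrays. The Serpina6 probe read in the table (A_51_P133562) was at background on every scanner array, so its difference was not measured there.

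Besides Serpina9, the measured signals of 3 genes were over 2-fold lower on the KO-labelled array in both pairs of the scanner files, for 1 of them, Serpinb7, with only a bound in the challenged pair. Serpinb10 (bomapin, a serpin of blood-forming cells; chr1:109443390-109443449) read -1.66, -3.11, -1.75 and -2.99, which is 2.73-fold and 2.36-fold lower. Serpine2 (protease nexin-1, an inhibitor of thrombin) read -2.76, -4.64, -2.40 and -3.83, which is 3.67-fold and 2.70-fold lower. Serpinb7 (megsin; chr1:109349063-109349122) read -4.80, -6.07 and -6.82 and was at background on the KO-labelled challenged array, which is 2.40-fold lower (control) and at least 1.57-fold lower (challenged). Over 2-fold in the challenged scanner pair only were Serpina3g (7.76-fold), Serpina3f (6.46-fold) and Serpina3i (4.16-fold), all higher on the KO-labelled array. Serpina12 was above background on that array alone and has only a bound, at least 1.45-fold higher, which is under 2-fold. Serpina3m was 3.23-fold lower and Serpinb9b at least 3.81-fold lower, while Serpina3n turned from 6.38-fold lower (control) to 4.72-fold higher (challenged). In the table the WT-labelled and KO-labelled arrays overlapped for Serpinb10, at -3.09, -3.10, -3.01 and -2.62. Serpine2 read -0.52, -0.86, -0.58 and -0.79 in the table, lower on both KO-labelled arrays but by 1.26-fold and 1.16-fold. Markers of other cell types also differed between these scanner arrays. Thymocyte markers (8 of 8 above background) summed to 3.30, 22.3, 3.03 and 3.79. Of them, 7 of 8 were 2-fold higher and 0 lower on the KO-labelled control array, and 5 of 8 higher and 0 lower on the KO-labelled challenged array. Endothelial markers were 2-fold lower for 4 of 6 in the control pair, but 0 of 6 were higher or lower in the challenged pair. The part of these cell types in the result was not tested.

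The averaged difference between the labels was fitted with limma over all genes above background, which left 1 residual degree of freedom per gene. That residual mixes a label difference that depends on treatment with differences between pools. The SE and p of this fit therefore do not measure variation between mice. Counts of Serpin genes below include the Serpina1 copies, which may not be independent readings. No Serpin gene and no other gene passed an adjusted p of 0.05 in either source. For the table the averaged log2 difference was 4.71 ± 0.19 (SE) for Serpina1a, 4.90 ± 0.17 for Serpina1c, 4.64 ± 0.08 for Serpina1d, 4.68 ± 0.18 for Serpina1e and -2.80 ± 0.07 for Serpina9, and the Benjamini-Hochberg adjusted p of these 5 in limma was 0.109 to 0.110. From the scanner values the averaged difference was -1.73 ± 0.14 for Serpina9, -1.34 ± 0.13 for Serpinb10 and -1.65 ± 0.17 for Serpine2, each with an adjusted p of 0.425 in limma. At an unadjusted p under 0.05, 16 of 47 Serpin genes tested in the table (34.0%) and 9 of 50 in the scanner files (18.0%) passed, beside 13.8% and 10.7% of all genes. With a variance trend in limma, 7 Serpin genes of the table passed (Serpina1a, Serpina1c, Serpina1d, Serpina1e, Serpina3m, Serpina9 and Serpina11), where 4% of all genes did, and 0 passed in the scanner files.

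The second comparison asked which serpins differed between challenged and control lungs. In the table Serpinb2, the intracellular urokinase inhibitor of macrophages and epithelium, was higher after challenge by 4.38-fold under the WT label and 4.56-fold under the KO label. Serpina3m was higher in both pairs by 2.10-fold and 2.51-fold, and Serpinb11, an epithelial serpin, was above background only after challenge. Of the acute-phase Serpina3 copies, 2 of 10 measured (WT label) and 5 of 9 (KO label) were 2-fold higher after challenge in the table and 0 were lower, and on the KO-labelled challenged scanner array 4 copies were 13.4 to 44.4-fold above the KO-labelled control array. These copies may not be independent readings. No Serpin gene was 2-fold lower after challenge in the table.

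By the 2-fold count, the WT-labelled challenge pair of the table held 4 Serpin genes higher and 0 lower of 47 measured, beside 2.36% of all genes higher and 1.09% lower (3.45% either way). The KO-labelled pair held 7 higher and 0 lower of 44, beside 3.27% and 1.36% (4.62%). The 3 genes higher and 0 lower in both pairs, of 44 measured, stand beside 0.635% and 0.105% of all genes (0.74%). Among scanner values the WT-labelled pair held 0 higher and 4 lower of 49, beside 2.4% and 2.03% of all genes (4.43%), and the KO-labelled pair 7 higher and 3 lower of 49, beside 4.38% and 4.35% (8.73%). Both scanner pairs shared 0 higher genes and 1 lower, Serpinb7, of 48, beside 0.89% and 0.519% (1.41%). The median log2 difference of the Serpin genes was 0.17 and 0.16 in the table and -0.01 and 0.13 in the scanner files, against 0.01 and 0.02, and -0.03 and -0.06, over all genes. The medians of clade A were 0.58 and 0.65 in the table. Those of clade B were -0.01 in both pairs, and those of the other clades were 0.17 and 0.18.

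Serpinb2 (plasminogen activator inhibitor type 2; mm9 chr1:109422046-109422105, plus strand) read -6.73 and -6.41 on the WT-labelled and KO-labelled control arrays of the table and -4.60 and -4.22 on the challenged arrays. Both challenged arrays lay above both controls by a margin larger than the difference within either treatment. Its averaged challenge difference was 2.16 ± 0.07 (SE), with an adjusted p of 0.477 in limma. With a variance trend the adjusted p in limma was 0.0166, and Serpina3m (0.0383) was the other Serpin gene to pass, where 0.449% of all genes did. No Serpin gene passed so in the scanner files, where 0.00379% of all genes did. There the same Serpinb2 probe read -3.69, -3.67, -3.76 and -3.18 and the treatments overlapped.

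Serpinb11 (chr1:109276756-109276815) was at background on both control arrays of the table and read -7.31 and -5.43 on the WT-labelled and KO-labelled challenged arrays, at least 2.54-fold and 7.83-fold above the floor of their controls. On the scanner arrays it was among the brighter Serpin probes, at 2.10, 2.19, 2.55 and 2.70, and 1.36-fold and 1.42-fold higher after challenge. The scanner level of this probe exceeded its table level by 10.16 on the log2 scale, that of Serpinb5 (maspin) by 9.39 and that of Serpinb12 by 4.65. Serpinb5 and Serpinb12 are serpins of squamous epithelium, and the squamous and basal marker list, whose sums were given above, also summed higher in the scanner files. Krt5 of that list read -4.24 to -3.82 in the table and 5.43 to 5.68 in the scanner files. Not every marker followed. Trp63 read 1.2 to 1.6 and 1.8 to 2.1, and Ivl was above background on 2 arrays of the table but on 0 scanner arrays. The part of that tissue in the Serpin values was not tested.

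**Figure D3:**
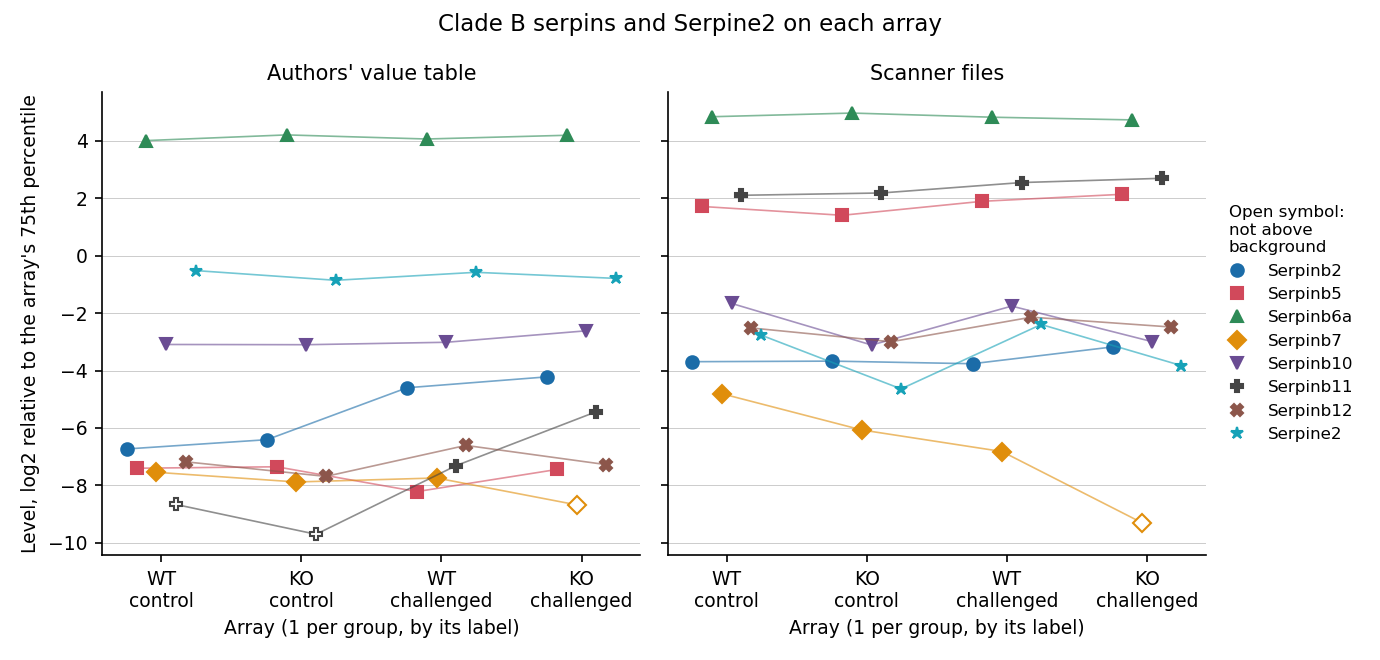
Levels (log2 relative to the array's 75th percentile) of 7 clade B serpins and Serpine2 on the 4 arrays, in the authors' value table (left) and the scanner files (right); each symbol is 1 array, open symbols are not above background and lines join the arrays of a gene. Serpinb2 lies at -6.73 and -6.41 on the control arrays and at -4.60 and -4.22 on the challenged arrays of the table, Serpinb11 and Serpinb5 lie far higher in the scanner files, and Serpinb6a is level in both.

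The Serpina3 genes encode acute-phase serpins related to human antichymotrypsin. Of the 11 copies with a probe, 9 were above background on every array of the table and 10 on every scanner array. Serpina3n, an inhibitor of granzyme B and of neutrophil proteases (chr12:105651918-105651977), read -0.17, 0.18, 0.42 and 1.34 in the table. The challenged arrays lay above the controls under both labels, by 1.5-fold and 2.24-fold. Serpina3g, which guards blood cells against lysosomal cathepsins (chr12:105480045-105480104), read 1.63, 0.61, 2.48 and 2.41, and was 1.81-fold and 3.48-fold higher after challenge. Serpina3m (chr12:105632110-105632169) read -3.94, -4.78, -2.87 and -3.46. Over all copies measured in the table the median challenge difference was 0.53 in 10 genes (WT label) and 1.04 in 9 genes (KO label), with 9 and 7 of them above 0. Over all genes the medians were 0.01 and 0.02. As copies this alike may bind the same probes, these counts are not of independent genes. Besides Serpina3m, the copies over 2-fold higher were Serpina3k under the WT label (5.02-fold), and Serpina3f (2.95-fold), Serpina3g, Serpina3h (2.06-fold) and Serpina3n under the KO label.

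Among the scanner arrays the KO-labelled challenged one stood apart for 4 of these copies. Serpina3n read -2.05, -4.73, -1.49 and 0.74 on the WT-labelled control, KO-labelled control, WT-labelled challenged and KO-labelled challenged arrays, which is 1.47-fold higher after challenge under the WT label and 44.4-fold under the KO label. Serpina3g read -0.79, -1.33, -0.12 and 2.84, which is 1.59-fold and 18.0-fold higher. Serpina3f read -5.77, -6.47, -4.98 and -2.29 (1.73-fold and 18.1-fold), and Serpina3i read -4.67, -5.57, -3.88 and -1.83 (1.73-fold and 13.4-fold). For these 4 probes the KO-labelled arrays were the lowest and the highest of the 4 arrays. A second Serpina3i probe (A_55_P2142232) read -6.81, -5.78, -4.34 and -1.74, with the WT-labelled control array lowest, and was 5.55-fold and 16.5-fold higher after challenge. Serpina3f and Serpina3i may not be independent readings: the Serpina3f probe lists transcripts of Serpina3f and Serpina3h, and the probes of Serpina3h and Serpina3i share 51 of 57 overlapping bases. A second probe that lists Serpina3f alone (A_55_P2104975) read -5.36, -6.60, -5.42 and -2.92, which is 1.05-fold lower after challenge under the WT label and 12.7-fold higher under the KO label. Taking the mean of a gene's probes, the WT-labelled scanner pair held 1 Serpin gene higher and 2 lower, against 0 and 4, and the KO-labelled pair 7 and 3, as before. Serpina3m ran the other way, at -5.33, -4.87, -4.47 and -6.16, and was 2.43-fold lower on the KO-labelled challenged array than on its control. Serpina3b read -3.40 to -3.62 and Serpina3k -6.80 to -7.22, with no array apart.

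Most neutrophil markers were highest on this array, but not all. The 6 markers with a probe in the scanner files were all above background and summed to 58.2, 45.8, 63.2 and 89.1, with 5 of 6 at least 2-fold higher after challenge in each pair. S100a8, 1 of these 5, read 0.22, 1.16, 1.88 and 3.97, with the WT-labelled control array lowest. The other marker, Csf3r, was the brightest of the 6 on every array but the KO-labelled challenged one, so it weighs heavily in the sums. It read 5.74, 5.22, 5.57 and 5.03 and was lowest on the KO-labelled challenged array. Macrophage markers summed to 4.17, 3.01, 2.52 and 6.63. In the table the neutrophil markers summed to 63.5, 71.0, 73.0 and 76.8, with 0 and 1 of 6 higher. The goblet cell markers of the table, which include the mucin Muc5ac, summed to 8.70, 16.2, 64.4 and 92.3, with 5 and then 6 of 6 higher after challenge. Eosinophil markers of the table summed to 1.65, 1.40, 1.44 and 1.71, with 1 of 4 measured (WT label) and 4 of 5 (KO label) higher and medians of 0.11 and 2.52 on the log2 scale. Those of the scanner files summed to 1.26, 1.38, 1.65 and 2.48, with 0 higher and 1 lower of 4 in each pair. The part of these cell types in the Serpina3 values was not tested.

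The Serpina3 promoters are related but less alike. The 63 bases below are aligned on the stretch where 3 copies hold TTCNNNGAA, the palindrome bound by STAT factors, which is in capitals, and 21 columns are identical over the 5:
Serpina3c: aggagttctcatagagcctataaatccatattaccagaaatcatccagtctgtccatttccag
Serpina3f: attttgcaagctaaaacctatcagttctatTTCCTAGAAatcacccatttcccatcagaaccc
Serpina3g: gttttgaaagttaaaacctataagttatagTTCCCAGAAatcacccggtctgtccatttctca
Serpina3i: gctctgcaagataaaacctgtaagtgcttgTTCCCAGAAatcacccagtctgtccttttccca
Serpina3n: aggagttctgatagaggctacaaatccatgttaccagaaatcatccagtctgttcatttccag
They are from GRCm38.p6 at chr12:104153960-104154022 (Serpina3c, minus strand), chr12:104214393-104214455 (Serpina3f, plus strand), chr12:104236084-104236146 (Serpina3g, plus strand), chr12:104262990-104263052 (Serpina3i, plus strand) and chr12:104406555-104406617 (Serpina3n, plus strand). TTCNNNGAA, searched on both strands of the 250 bases before the start, was held by 7.02% of 32851 promoters and by those of 8 of the 50 Serpin genes matched. The holders were Serpina11, Serpina1f, Serpina3f, Serpina3g, Serpina3i, Serpinb2, Serpinb6a and Serpinb9c. They include Serpinb9c, at background on every array, and Serpinb6a, which varied little in either source. The windows of Serpina3c and Serpina3n hold none. In the scanner files Serpina3n moved with Serpina3f, Serpina3g and Serpina3i. Serpina3c, which shares most of its letters with Serpina3n, read -5.79, -6.29, -6.20 and -5.75 there. The part of this motif in the values was not tested.

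**Figure D4:**
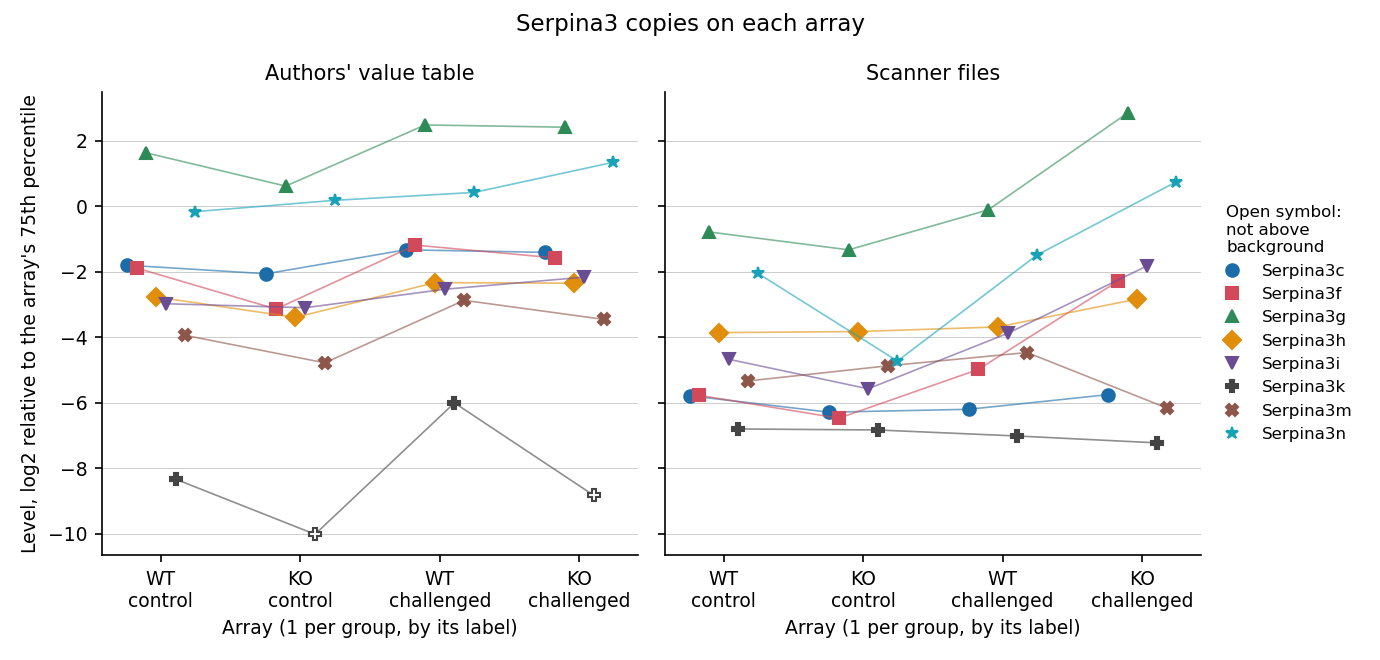
Levels (log2 relative to the array's 75th percentile) of 8 Serpina3 copies on the 4 arrays, in the authors' value table (left) and the scanner files (right); each symbol is 1 array, open symbols are not above background and lines join the arrays of a gene. Each gene is drawn from its probe of highest mean level. In the scanner files Serpina3n, Serpina3g, Serpina3f and Serpina3i are lowest on the KO-labelled control array and highest on the KO-labelled challenged array, and in the table their spread over the arrays is smaller.

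The other scanner differences after challenge were of single genes. Serpinb7 was lower in both pairs, by 4.04-fold (WT label) and at least 2.64-fold (KO label). Under the WT label only, Serpinf2 (alpha-2-antiplasmin) was 2.82-fold lower, and Serpina1a (2.05-fold) and Serpina1e (2.01-fold) lay just past the threshold with Serpina1c just inside it at 1.93-fold. Under the KO label only, Serpinc1 (antithrombin) was 2.31-fold and Serpina10 (an inhibitor of coagulation factor Xa) 2.05-fold higher. Serpina12 was above background on the KO-labelled challenged array alone, at least 1.33-fold above its control, and Serpinb9b was at least 2.51-fold lower there. In the table the same 2 pairs gave Serpinf2 0.30 and 0.72 higher and Serpinc1 0.18 and 0.59 higher on the log2 scale. No gene passed limma for the averaged challenge difference in either source, the lowest adjusted p being 0.477 in the table and 0.514 in the scanner files, while 16 of 47 (34.0%) and 13 of 50 (26.0%) Serpin genes had an unadjusted p under 0.05, beside 8.8% and 9.6% of all genes.

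**Figure D5:**
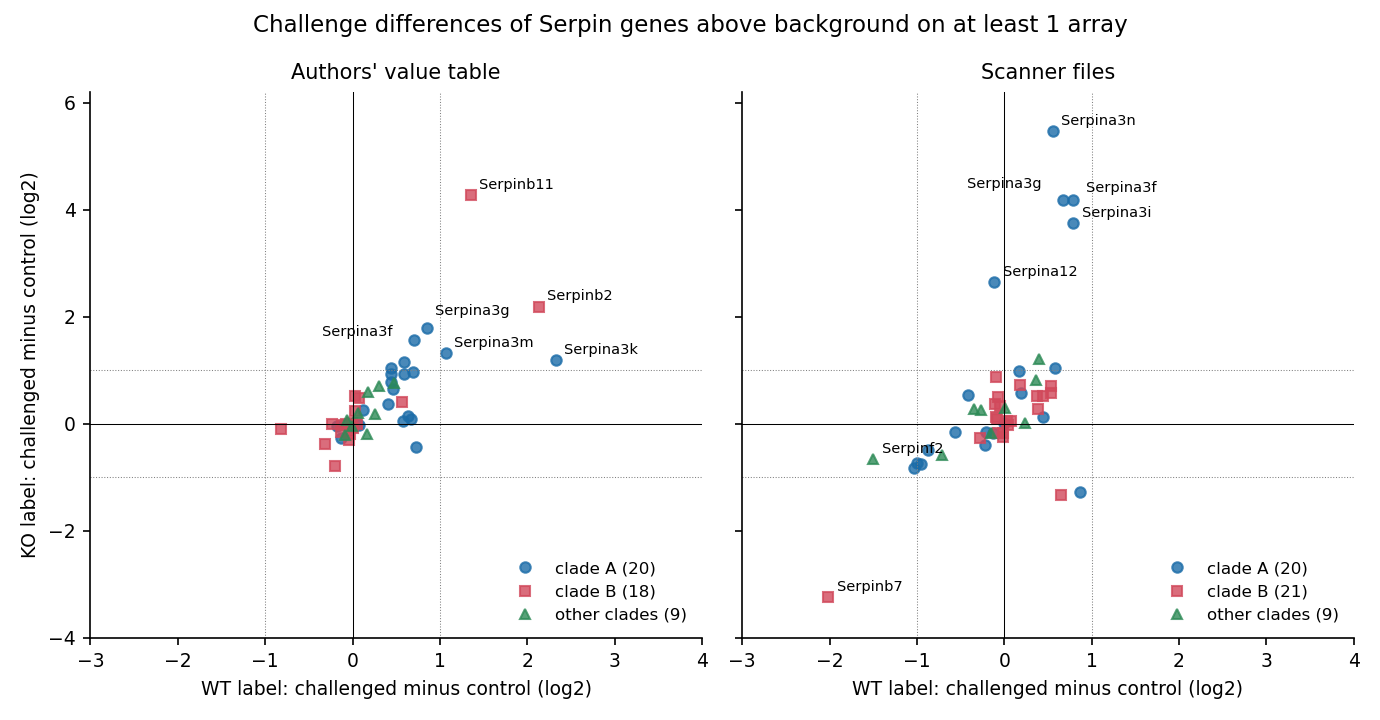
Log2 difference of challenged minus control array under the WT label (horizontal axis) and the KO label (vertical axis) for Serpin genes above background on at least 1 array of the authors' value table (left) or the scanner files (right), coloured by clade; dotted lines mark 2-fold and genes at the edges are named. Serpinb2 lies past 2-fold on both axes of the table, and Serpina3n, Serpina3g, Serpina3f and Serpina3i, by their probes of highest mean level, lie past 2-fold only on the KO axis of the scanner files (a second Serpina3i probe is past it on both).

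Clade B held more genes with close levels on all 4 arrays than clade A. Differences within 0.5 on the log2 scale in every pair were found for 12 of 16 clade B genes above background on all arrays of the table and 11 of 19 in the scanner files, against 2 of 17 and 3 of 18 in clade A. Of all genes above background on all 4 arrays, 78.8% in the table and 68.6% in the scanner files lay within that limit, so the clade B shares are near or below those of all genes. Serpinb6a, an inhibitor of cathepsin G found in most cells, and its close copy Serpinb6c were the brightest clade B probes of both sources. Serpinb6a read 4.01 to 4.21 in the table and 4.73 to 4.97 in the scanner files, and Serpinb6c 3.77 to 3.85 and 4.36 to 4.53. These probes share 39 of 42 overlapping bases, so their values may not be independent readings. Among the other clades, Serping1 (C1 inhibitor, of complement and contact activation) read 4.48 to 4.56 in the table and 3.40 to 3.84 in the scanner files. Serpinh1 (the collagen chaperone HSP47) read 2.88 to 3.33 and 1.19 to 1.85, and Serpinf1 (pigment epithelium-derived factor, which inhibits no protease) 1.23 to 1.44 and 1.43 to 1.83. None of the 9 genes of other clades measured in the table were 2-fold different in any pair, beside 1424 of 23887 of all genes above background on all 4 arrays. In the scanner files 3 of 9 were (Serpinc1, Serpine2 and Serpinf2), beside 2304 of 23752 of all genes.

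The proteases that serpins restrain were read from lists of targets and their partners. The counts after challenge stand beside 3.45% (WT label) and 4.62% (KO label) of all genes at 2-fold either way in the table. In the scanner files these shares were 4.43% and 8.73%. Of 7 neutrophil serine proteases and granule partners none were 2-fold different after challenge in the table, and elastase, the target of Serpina1 (Elane), read -1.52, -1.59, -1.56 and -1.97. Its scanner values were -0.82, -0.93, -0.84 and -1.0, and of the 7 genes 1 was higher under the WT label and 1, Mpo, lower under the KO label there. Of 7 plasminogen activation genes, the targets and partners of Serpinb2 and Serpinf2, none were 2-fold different in the table, with medians of 0.07 and -0.02. Among scanner values 2 of 6 were higher and 1 lower under the WT label, and 3 of 5 higher and 0 lower under the KO label. The activators Plat (tPA: -2.86, -2.72, -1.82 and -0.84) and Plau (urokinase: -7.01, -6.35, -5.86 and -4.88) were higher in both challenge pairs there. Of 9 mast cell and basophil proteases in the table, 1 and 2 were higher after challenge, with Mcpt2 at -8.41, -8.29, -6.64 and -6.73, and 0 of 9 differed by 2-fold in either pair of the scanner files. Of 10 coagulation proteases 0 and 2 were higher in the table, with F10 at 0.55, 0.25, 1.50 and 1.79. The scanner files held 0 and 1 of 10 higher and none lower, and F10 read -3.20, -4.42, -3.54 and -2.17 there, a difference of -0.34 under the WT label and 2.25 under the KO label. The 8 lysosomal cathepsins held none at 2-fold after challenge in either source.

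Complement and contact targets of Serping1 were level after challenge (0 of 6 in the table and 0 of 5 in the scanner files at 2-fold in either pair). Between the labels 1 of 6, the lectin pathway protease Masp2, was lower on both KO-labelled arrays of the table, at -4.41, -6.81, -4.17 and -7.12. Of all genes 1.62% were 2-fold lower in both pairs. The list of granzymes and perforin holds granzyme B, a target of Serpinb9 and Serpina3n, and was not read as a list of their targets. Of its 10 genes 6 were measured in the table, with 0 and 1 higher after challenge and medians of -0.22 and -0.23. Of 8 measured in the scanner files, 1 was higher and 0 lower under the WT label, and 0 higher and 2 lower under the KO label. Serpinb9 itself, the granzyme B inhibitor of cytotoxic cells, read 1.40, 1.68, 1.37 and 1.48. Of 12 measured inhibitors outside the family, 0 and 1 were higher after challenge in the table and 3 and 4 in the scanner files. Lower ones numbered 0 and 0 in the table and 0 and 1 in the scanner files. Timp1, the metalloprotease inhibitor, read 0.73, 0.40, 1.71 and 2.29 in the table and -1.35, -1.05, -0.32 and 1.09 in the scanner files, with both challenged arrays above both controls in each source.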

How the data were processed

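Each scanner file gives a spot's intensity, made with Agilent Feature Extraction 11.5.1.1 and with mm9 probe positions, per the file headers. The authors also deposited a value table of linear signal per spot, whose making no source used here states. The scanner level was log2 of the processed intensity minus that of the array's 75th percentile over non-control spots. The table level was log2 of the signal alone, as the 75th percentile of its columns was already about 1.00. Above background meant Agilent's flag (scanner) or over 5 times the median negative control (table). Spots of a probe were averaged, and a gene was read from its probe of highest mean level over the 4 arrays of a source, which can differ between the sources (Serpina3f and Serpina6). Transcript accessions were named through RefSeq (28330 of 39429 probes) or by symbol (2204), and 8895 kept the file's name. Genes above background numbered 26069 (table) and 26371 (scanner).

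Arrays were grouped by sample title. Counts at 2-fold took every gene that either array of the pair showed above background. A fold against an array at background is a lower bound, with that array at its lowest signal above background or its own value if higher. Averaged effects were fitted with limma 3.58.1 in R 4.3.3 (label plus treatment), with Benjamini-Hochberg adjustment across every gene tested, and the script was tested on simulated data. Precision is limited by the number of arrays, 1 per group, and the residual of the fit mixes differences of response between labels with differences between pools. Genes given on every array passed 2-fold one way in both pairs of a comparison in a source, or were the 2 brightest of their clade group, and other genes with every value were chosen after their values were seen, as family members or in flagged results. For target lists, genes above background on all arrays with the largest averaged challenge difference were named, and Elane, Mpo, Masp2, Serpinb9 and the cell markers beside results were chosen after their values were seen. The members and lists were chosen with earlier results of these data known. Alternatives were other normalizations, filters, probe summaries, variance models and, added after seeing the data, arrays at background set to the floor. The values of 1 member are not reported here.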

Additional observations from a re-analysis of the deposited data

Results flagged for a closer look

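In the scanner files 5 Serpina3 copies differed in opposite directions under the same contrast, by at least 0.5 on the log2 scale on either side and by 1 or more on one, among genes above background on all 4 arrays. With 1 array per group the difference was not tested. Between the genotype labels, Serpina3n was 2.67 lower on the KO-labelled control array and 2.24 higher on the KO-labelled challenged array, a change of 4.91. For Serpina3g the difference ran from -0.55 to 2.96, a change of 3.50. For Serpina3f it ran from -0.70 to 2.69, a change of 3.39, and for Serpina3i from -0.90 to 2.06, a change of 2.96. The turn of Serpina3i rests on 1 of its probes: the second (A_55_P2142232) was higher on the KO-labelled array in both pairs, by 1.03 and 2.60. A second Serpina3f probe (A_55_P2104975) turned as the first did, with -1.24 and 2.50. Serpina3m turned between the challenge responses instead, with 0.87 under the WT label and -1.28 under the KO label, a change of -2.15. No Serpin gene of the table passed these limits, and Serpina10, with 0.56 and -0.59 between the labels, came nearest.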

How the results depend on the processing

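Counts of Serpin genes moved most with the filter and, in the scanner files, with normexp and quantile normalization. Requiring all 4 arrays above background gave 2 genes for the WT-labelled challenge pair of the table and 5 for its challenged genotype pair, no filter gave 8 for the former, and the main counts were 4 and 8, while all genes at 2-fold fell from 887 to 334 and from 1473 to 750 with all 4 arrays required, and the former rose to 1536 with no filter. Requiring all 4 arrays also let 5 Serpin genes of the table pass limma for the averaged genotype label (Serpina1a, Serpina1c, Serpina1d, Serpina1e and Serpina9), a variance trend let 7 pass, and for the averaged challenge the trend let 2 pass, against 0 in the main analysis. Of all genes, 271 of 23887, 1042 of 26069 and 117 of 26069 passed in these 3 fits. Normexp with quantile normalization gave 0 genes in the WT-labelled challenge pair of the scanner files, 4 in the KO-labelled pair and 6 in the challenged genotype pair, against 4, 10 and 11. All genes at 2-fold fell as well, from 1147 to 193, from 2229 to 719 and from 2105 to 489, and 9 of 23 named scanner differences then fell under 2-fold, among them all 4 of Serpinb7. The cause was not tested. Under the other 4 scalings and summaries 1 or 2 of the 23 scanner differences, and 0 or 1 of 27 in the table, fell under 2-fold, and none reversed under any. With the floor, the difference of Serpina3k between the control arrays of the table was -0.07, against -1.68, and the Serpin genes of the challenged genotype pair of the scanner files numbered 9, against 11. No replicate could be left out and no paired analysis was possible because each group has 1 array. All 4 arrays lay on 1 slide and in 1 scan, so the slide as a block was not run. Probes at background have only bounds.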
